A study of Mus musculus with 141 samples.

Results

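The ciliary and axonemal genes described here are the genes whose symbol begins with Dnah, Dnaic, Dnali, Ift, Bbs, Tekt or Rsph followed by a digit. The rule took 49 of the 24423 genes in the files and used no measured value. RNA-seq was available for whole lung, kidney and liver of 47 strains of the Collaborative Cross (CC), a panel of recombinant inbred mouse lines that mix the genomes of several founders. From each strain 1 adult male of 8 to 12 weeks was taken, and this animal gave all 3 tissues, so the 141 libraries fall into 3 groups of 47 with strain as the pairing. All animals had spent 6 hours per weekday in chambers with clean air before the tissues were taken, and no group received an agent or carried an engineered allele. With 1 mouse per strain, a difference between strains cannot be told apart from a difference between individual mice.

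A cilium is a membrane-covered bundle of microtubule doublets that grows from a basal body. Motile cilia, such as those of the ciliated cells that line the airways, carry axonemal dyneins in outer and inner arms, radial spokes that pass signals from the centre of the bundle to the arms, and tektin filaments in the doublet walls. Primary cilia, which most cells including kidney tubule cells form as a single immotile antenna, lack these parts. Both kinds are built by intraflagellar transport (IFT), in which trains of IFT-A and IFT-B proteins carry cargo along the doublets, and both are serviced by the BBSome, a coat of Bardet-Biedl syndrome (BBS) proteins that moves membrane proteins out of the cilium. Hepatocytes, the main cells of the liver, form no cilium, while the bile duct cells of the liver do.

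By these roles the 49 genes form a motile branch of 27 genes and a transport branch of 22 genes. The motile branch holds 12 dynein heavy chains (5 of the outer and 7 of the inner arm), the 3 smaller dynein chains Dnaic1, Dnaic2 and Dnali1, 7 radial spoke genes and 5 tektins. The transport branch holds 3 IFT-A genes, 11 IFT-B genes, 6 subunits of the BBSome and the 2 chaperonin-like genes Bbs10 and Bbs12.

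Promoter sequence was compared first, because the same regulators are known to serve both branches: RFX factors bind a palindromic site called the X-box, and the forkhead factor Foxj1 is the switch for motile cilia. In the RefSeq promoters (GRCm38.p6, 250 bases before to 50 bases after the start, 300 bases in all), 44 of the 49 genes had an entry, giving 48 promoters. The X-box was searched on both strands as GTNNCC, then any 2 bases, then NGNAAC. It was found in 26.3% of the 19 transport promoters, in 6.90% of the 29 motile promoters and in 2.17% of all 32851 promoters of the same length. The windows below show 12 bases on each side of a match, 5′ to 3′ on the strand of the gene, with the X-box in capitals. They were chosen because the matches lie upstream of the start, with a single window shown for each gene.

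Bbs7: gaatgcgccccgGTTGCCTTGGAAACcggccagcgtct
Ift57: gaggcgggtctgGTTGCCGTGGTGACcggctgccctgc
Ift22: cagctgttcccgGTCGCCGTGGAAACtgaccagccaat
Tekt4: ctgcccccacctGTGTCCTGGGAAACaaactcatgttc
Dnah17: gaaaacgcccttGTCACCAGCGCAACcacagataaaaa

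The Bbs7 window is chr3:36613485-36613522 on the minus strand, the Ift57 window chr16:49699195-49699232 on the plus strand, the Ift22 window chr5:136908105-136908142 on the plus strand, the Tekt4 window chr17:25471418-25471455 on the plus strand and the Dnah17 window chr11:118129353-118129390 on the minus strand. In Ift57 the match reads on the opposite strand. Ift22 held a further match upstream of the start, not shown, and Tekt4 a further match that begins at the start. Bbs1 and Bbs4 had a match downstream of the start. The shorter word GTTGCC, which can lie inside an X-box, stood in 42.1% of transport promoters, 34.5% of motile promoters and 12.5% of all. The forkhead word TGTTTAC stood in 0 of 19 transport promoters, in 6.90% of motile promoters (Dnah17 and Tekt3) and in 3.65% of all. A match is a description of letters and not a bound site.

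The 3 copies of the inner-arm heavy chain Dnah7 lie on chromosome 1 and have related promoters, which matters below because their levels differ between tissues. Dnah7a and Dnah7c shared 90.4% of 281 aligned promoter bases, Dnah7a and Dnah7b 87.3% of 245, and Dnah7b and Dnah7c 85.7% of 231. The run of 29 bases in capitals was identical in all 3, with 20 bases shown on each side (GRCm38.p6, chr1:53706800-53706868 on the minus strand for Dnah7a, chr1:46066802-46066870 on the plus strand for Dnah7b and chr1:46425422-46425490 on the plus strand for Dnah7c).

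Dnah7a: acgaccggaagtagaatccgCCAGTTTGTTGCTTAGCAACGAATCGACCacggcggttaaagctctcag
Dnah7b: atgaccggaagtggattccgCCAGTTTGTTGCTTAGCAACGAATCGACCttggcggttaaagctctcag
Dnah7c: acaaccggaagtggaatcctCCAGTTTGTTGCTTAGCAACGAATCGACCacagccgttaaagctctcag

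Levels are given as TPM, the share of a library's transcripts corrected for transcript length, while differences between tissues are log2 fold changes of counts after TMM scaling, which trims extreme genes before it sets library sizes. The scales differ: on log2(TPM + 1) the median of all genes lay 0.47 higher in lung than in kidney, 1.21 higher in lung than in liver and 0.72 higher in kidney than in liver, against 0.04, 0.06 and 0.00 after TMM, so a TPM ratio against liver is larger than the fold change. Depth ranged from 1738046 to 42158454 counts per library. Of the cell type markers, Scgb1a1 of club cells had a median of 61079 TPM in lung and Alb of hepatocytes 57374 TPM in liver. Kap of the proximal tubule had a median of 87761 TPM in kidney. Cyp2f2, also on the club cell list, was not particular to lung, with medians of 2361 TPM in lung and 1320 TPM in liver. The bile duct list (Krt19, Krt7, Epcam and Sox9) summed to a median of 3.51 TPM in liver. In 3 libraries, lung of CC015, kidney of CC020 and liver of CC033, Rn45s and Lars2 took 90.5%, 64.5% and 90.3% of counts, against tissue medians of 24.1%, 32.3% and 43.2%. Lung of CC015 had the lowest lung TPM of 33 of the 41 members that could be tested, so the lowest lung values below are mostly that library. In bulk tissue, fewer cells of a type and less RNA per cell cannot be told apart.

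Of the 49 members, 41 passed the filter of more than 1 CPM (counts scaled to library size) in at least 30% of the libraries, as did 12127 genes in all. That share is fewer libraries than lung holds, so lung alone could carry a gene past the filter, and the calls of the 22 motile members that passed are not independent of it. The 8 that did not pass were Rsph6a, Rsph14, Tekt1, Tekt3, Tekt5, Bbs9, Bbs12 and Ift122. Rsph6a, Rsph14 and Tekt1 had no library above 3 counts, where a value is not resolved. All but Tekt3 of these 8 have several transcripts in the files, which holds for 9 of the 49 members. Over all genes, 32.2% of 6112 genes with several transcripts and 55.5% of 18311 genes with a single transcript passed the same filter.

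**Figure D1:**
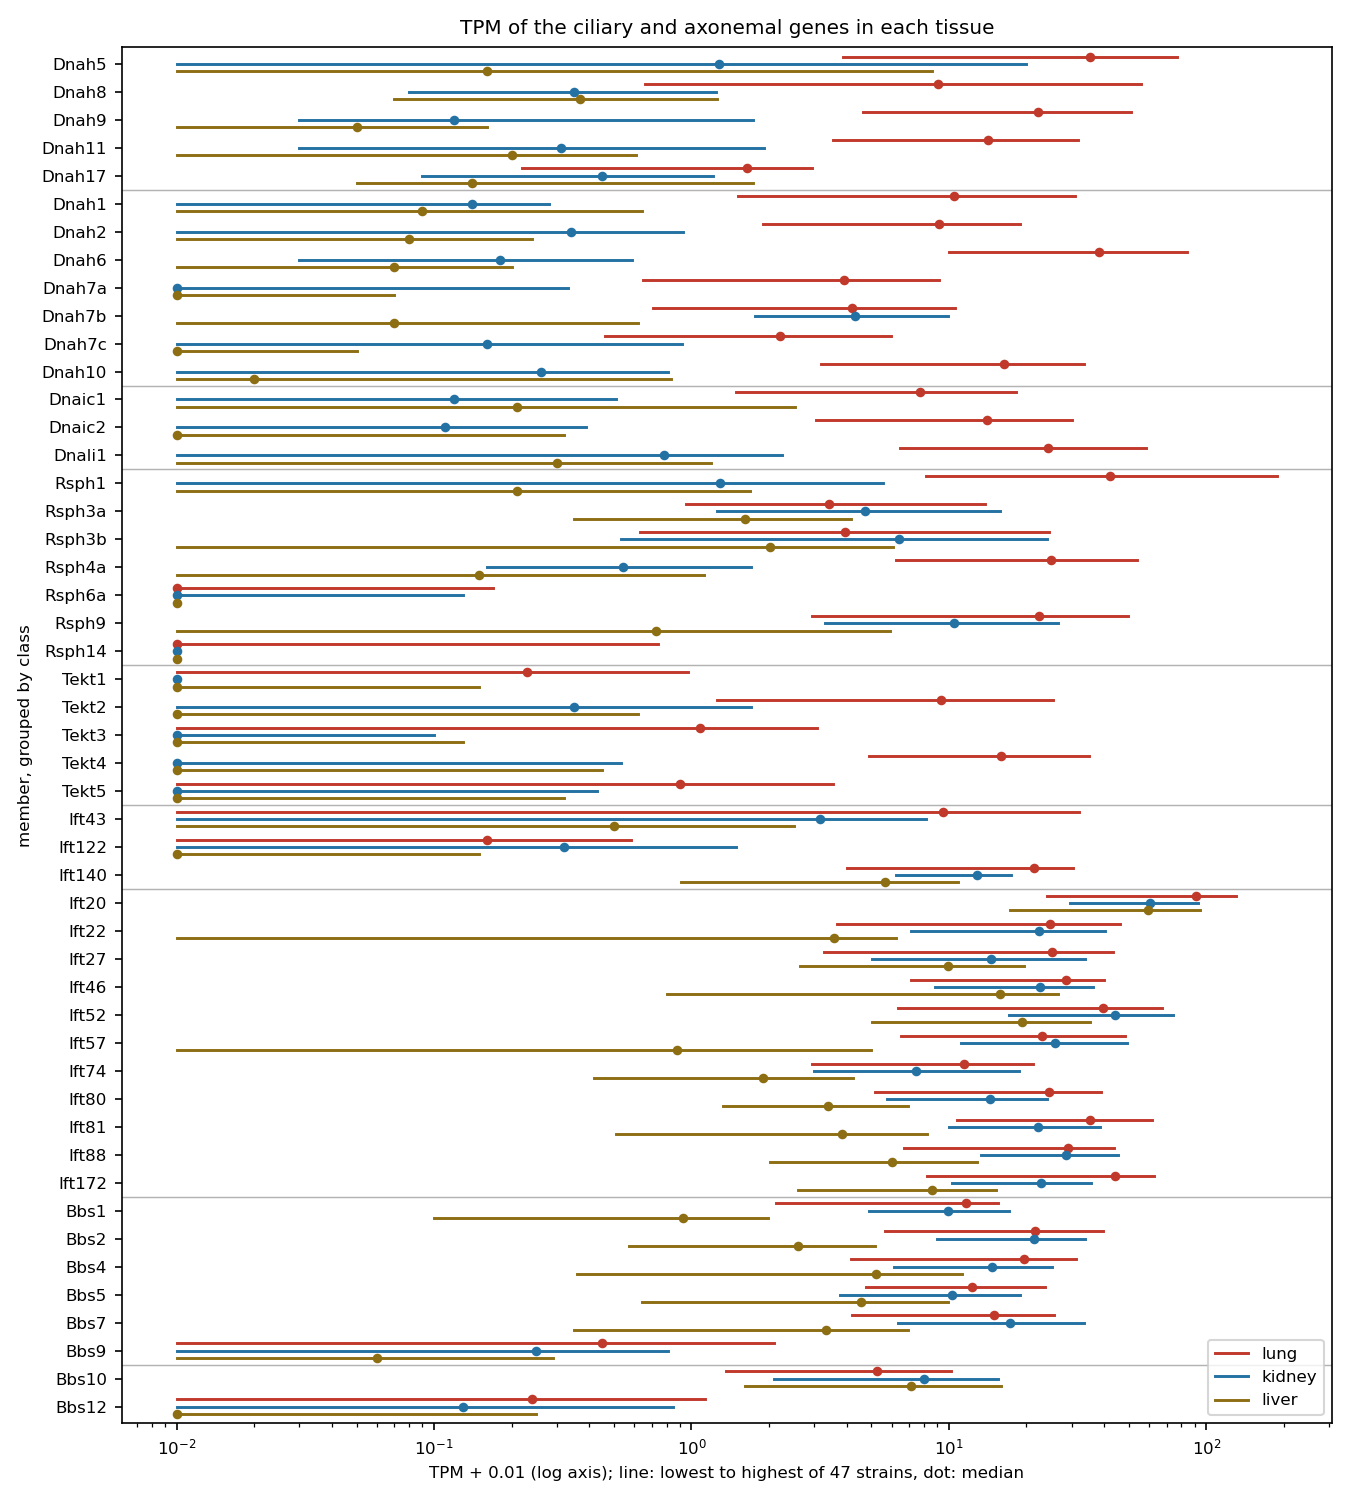
TPM + 0.01 on a log axis for each of the 49 members, grouped by class, with a line from the lowest to the highest of 47 strains and a dot at the median for lung, kidney and liver. Most dynein chains, Rsph1, Rsph4a and Tekt4 have lung lines to the right of the other tissues, most IFT and BBS genes overlap between lung and kidney, and Rsph3a, Rsph3b and Dnah7b do not follow the other motile genes.

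The outer arm is the main motor for the beat and is built from paired heavy chains. Dnah5 and Dnah9, the heavy chains of airway outer arms, and Dnah11 had the highest lung medians of the 5 outer-arm heavy chains. Dnah5 ranged from 3.86 to 76.6 TPM in lung (median 35.4), from 0 to 19.9 TPM in kidney (median 1.27) and from 0 to 8.61 TPM in liver (median 0.15). These ranges overlapped through 2 strains with high kidney and liver values, described further on. Dnah9 ranged from 4.64 to 51.1 TPM in lung (median 22.2), from 0.02 to 1.72 in kidney (median 0.11) and from 0 to 0.15 in liver (median 0.04). No kidney or liver library reached the lowest lung library. By limma-voom with Benjamini-Hochberg adjustment, Dnah9 was higher in lung than in kidney by a log2 fold change of 6.72 ± 0.22 (SE, n = 47 strains, adjusted p = 4.9e-51) and higher than in liver by 7.46 ± 0.19 (adjusted p = 9.1e-61), in 47 of 47 strains both times. Dnah8 and Dnah17, better known as heavy chains of the sperm tail, were also present in lung, at medians of 9.02 and 1.63 TPM. Their spermatid setting was not seen, since the summed TPM of Prm1, Prm2, Tnp1 and Tnp2 had a median of 0 in every tissue. Dnah17 had the smallest difference of the 5, 1.26 ± 0.12 over kidney and 1.67 ± 0.12 over liver, both called.

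Inner-arm heavy chains shape the bend of the axoneme. Dnah6 was the most abundant, from 9.99 to 84.0 TPM in lung (median 38.4), from 0.02 to 0.58 in kidney (median 0.17) and from 0 to 0.19 in liver (median 0.06). The groups did not overlap, and Dnah6 had the largest difference of the 41 members against kidney, 7.32 ± 0.20 on the log2 scale (adjusted p = 1.3e-56). Dnah10, from 3.16 to 33.5 TPM in lung, had the largest difference against liver, 7.70 ± 0.22 (adjusted p = 7.7e-56), within the SE of the 7.68 ± 0.18 of Dnah6. In kidney it had a median of 0.25 TPM, and it was higher there than in liver by 2.29 ± 0.26. Dnah1 and Dnah2 had lung medians of 10.5 and 9.1 TPM and were below 1 TPM in every kidney and liver library.

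The Dnah7 copies parted from each other in kidney. Dnah7a had medians of 3.91 TPM in lung, 0 in kidney and 0 in liver, and Dnah7c had 2.20, 0.15 and 0. Dnah7b had 4.21 TPM in lung, 4.29 in kidney and 0.06 in liver, with kidney libraries from 1.75 to 9.91 TPM, all above the highest liver library at 0.61. Its kidney to liver difference of 5.06 ± 0.19 was the largest of the 41 members in that comparison (adjusted p = 5.4e-46). Its lung to kidney difference of -0.70 ± 0.19 was short of the fold threshold. Across strains in lung the log2(TPM + 0.5) levels of Dnah7b and Dnah7c had a Pearson r of 0.91 (47 strains, shared libraries). The same r was 0.84 on log2 CPM after TMM. In GENCODE vM1 on NCBIM37 (mm9, the build in the submitters' processing notes), Dnah7b spans chr1:46123583-46430395 on the plus strand, and 36.5% of the 50-base windows of its transcript occur more than once in the genome. The authors quantified RefSeq models, which can differ from these. The lengths in the files are 12272, 12318 and 12282 bases for Dnah7a, Dnah7b and Dnah7c. The authors counted uniquely aligned reads, so the levels of these copies are uncertain.

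Dnaic1 and Dnaic2 are intermediate chains that seat the outer arm on the doublet, and Dnali1 is a light intermediate chain of inner arms. Dnaic2 lay between 3.04 and 29.9 TPM in lung (median 14.1) and at no more than 0.38 TPM in kidney and 0.31 in liver. Dnali1 lay between 6.43 and 58.4 TPM in lung (median 24.3), with medians of 0.77 in kidney and 0.29 in liver. Both were separated from the other tissues in every strain. Dnaic1 had a median of 7.68 TPM in lung, 0.11 in kidney and 0.2 in liver, where 4 kidney and 12 liver libraries held more than 3 counts. Dnaic1 was the motile member with the largest fall from liver to kidney, -1.76 ± 0.28 (adjusted p = 1.1e-08, higher in kidney in 8 of 47 strains). It was not called on log2(TPM + 1), at -0.26, or on log2(TPM + 0.1), at -0.84.

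The radial spokes split into separate patterns. Rsph1 and Rsph4a, parts of the spoke head, were high in lung alone. Rsph1 lay between 8.10 and 188 TPM in lung (median 42.1), with medians of 1.28 in kidney and 0.2 in liver. Rsph4a lay between 6.20 and 53.9 TPM in lung (median 24.8) and at no more than 1.70 TPM elsewhere. Rsph9, a further spoke head gene, had medians of 22.3 TPM in lung, 10.4 in kidney and 0.72 in liver. It was higher in kidney than in liver by 2.68 ± 0.21 (adjusted p = 1.6e-22), while the lung to kidney difference of 0.40 ± 0.20 (adjusted p = 0.055) was short of the fold threshold. Rsph3a and Rsph3b, copies of a spoke stalk gene, were present in all 3 tissues. Rsph3b had medians of 3.94 TPM in lung, 6.38 in kidney and 2.01 in liver, and it was the only motile member called lower in lung than in kidney, by -1.38 ± 0.15 (adjusted p = 2.3e-14). On log2(TPM + 1) that difference was -0.73 and was not called. The lung to liver differences of Rsph3a (-0.27 ± 0.11) and Rsph3b (-0.46 ± 0.16) were not called and turned positive on the TPM scale. The genes lie on chromosome 17, Rsph3a at chr17:8138518-8172689 on the plus strand and Rsph3b at chr17:7109030-7153070 on the minus strand (GENCODE vM1 on NCBIM37), and 80.9% and 61.9% of their transcript windows occur more than once in the genome, so reads could be lost or split between them.

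Of the tektins, Tekt4 lay between 4.87 and 35.0 TPM in lung (median 15.9) and at no more than 0.52 TPM in kidney and 0.44 in liver. Tekt2 had a lung median of 9.28 TPM, and its kidney libraries reached 1.70 TPM, above its lowest lung library at 1.25. Tekt1, Tekt3 and Tekt5 had lung medians of 0.22, 1.07 and 0.89 TPM and were at a median of 0 in both other tissues. Fold changes rest on few counts where no library of the lower tissue held more than 3, as for Dnah7a, Dnah7c, Dnaic2 and Tekt2 in liver and Tekt4 in kidney.

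The counts over the branch were as follows. Lung was called higher than kidney at an adjusted p of at most 0.1 and a log2 fold change of at least 1 for 18 of the 22 motile members tested, against 25.5% of all genes tested, and lower for 1, against 20.6%. Lung was called higher than liver for 20 of 22, against 31.0%, and lower for 0, against 23.9% (limma-voom). At an unadjusted p under 0.05, 2 were lower than in liver (Rsph3a and Rsph3b), and by edgeR and DESeq2 0 were called lower. Kidney was called higher than liver for 5 of 22 (Dnah5, Dnah7b, Dnah7c, Dnah10 and Rsph9), against 20.8%, and lower for 2 (Dnah8 and Dnaic1), against 15.6%. By edgeR 8 were called higher and by DESeq2 9. Dnah8 was at -1.04 ± 0.18 by limma-voom and lost its call with DESeq2 size factors (-0.93), with DESeq2 (-0.996), without the filter (-0.97), on log2(TPM + 1) (-0.04) and on log2(TPM + 0.1) (-0.10). Dnah5 and Dnah10 lost theirs on log2(TPM + 1) (0.90 and 0.30). The median log2 fold change of the tested motile members was 4.47 for lung over kidney, 5.05 for lung over liver and 0.51 for kidney over liver. Over all 27 motile genes, filtered or not, the lowest lung TPM lay above the highest kidney TPM for 13, against 3.12% of all genes, and above the highest liver TPM for 15, against 7.96%. Without CC015, CC020 and CC033 these were 16 and 17 genes, against 5.86% and 12.9%, and the called counts were 18 and 20 higher in lung.

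**Figure D2:**
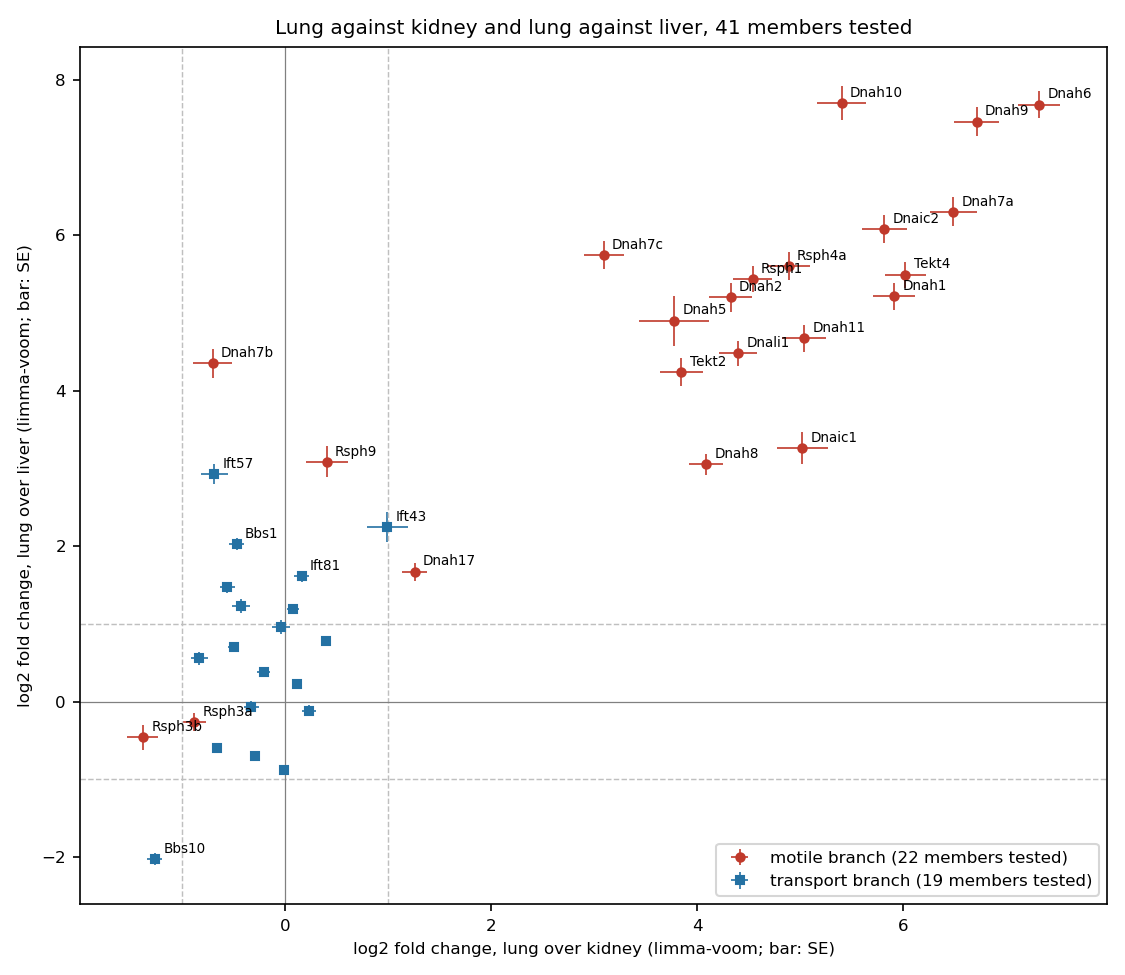
Log2 fold change of lung over kidney (x axis) and of lung over liver (y axis) for the 41 members tested, by limma-voom on TMM-scaled counts, with bars for the SE and dashed lines at a fold threshold of 1. Most motile members (circles) sit in the upper right, up to 7.32 and 7.70, while transport members (squares) lie within 1.27 of 0 against kidney.

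The transport branch was present in all 3 tissues. The summed TPM of its 22 genes had medians of 524 in lung, 401 in kidney and 172 in liver, compared with 355, 37.8 and 7.98 for the 27 motile genes. Lung was called higher than kidney for 0 of 19 transport members tested, against 25.5% of all genes, and lower for 1, Bbs10, against 20.6%, and the median log2 fold change was -0.29. At an unadjusted p under 0.05, 5 were higher and 11 lower by limma-voom, and of the higher ones Ift43 had the largest difference, 0.99 ± 0.20, and by edgeR and by DESeq2 1 was called higher. No transport member had its lowest lung TPM above its highest kidney TPM, which held for only 3.12% of all genes.

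Against liver the differences of the transport genes varied in size. Lung was called higher for 7 of the 19 members tested, near the 31.0% of all genes, and lower for 1, against 23.9%. Kidney was called higher than liver for 10, against 20.8%, and lower for 0, against 15.6% (4 at an unadjusted p under 0.05, limma-voom, and 0 by edgeR and DESeq2), with medians of 0.70 and 1.0 on the log2 scale. The largest was Ift57, an IFT-B subunit, at 6.52 to 48.2 TPM in lung (median 22.9), 11.1 to 49.1 in kidney (median 25.7) and 0 to 4.96 in liver (median 0.87). No liver library reached the lowest lung or kidney library. Ift57 was higher than in liver by 2.93 ± 0.13 in lung and by 3.62 ± 0.13 in kidney (adjusted p = 8.3e-47). Bbs1 and Bbs2, core subunits of the BBSome, followed in kidney with 2.5 ± 0.07 and 2.03 ± 0.07, and stood at 2.02 ± 0.07 and 1.47 ± 0.07 in lung. Their liver medians were 0.92 and 2.59 TPM, against 11.6 and 21.7 in lung, and the groups did not overlap. Ift22, Ift43, Ift80 and Ift81 were called in both comparisons, and Bbs7, Ift74 and Ift88 in kidney against liver alone, a difference between the comparisons that was not tested and that rests on a shared liver group. Ift74 stood at 1.0 ± 0.09, at the threshold. The lowest lung TPM lay above the highest liver TPM for 4 of the 22 transport genes (Bbs1, Bbs2, Ift57 and Ift81), against 7.96% of all genes.

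Other transport genes differed less. Ift20, the IFT-B protein that also sits at the Golgi, was the member with the highest median in every tissue, 90.9 TPM in lung, 60.2 in kidney and 59.5 in liver. Its lung to liver difference was -0.88 ± 0.04 and its lung to kidney difference -0.01 ± 0.04. On log2(TPM + 1) the value against liver was 0.60, so the direction depends on the scale. Ift140, the large IFT-A subunit, had TPM medians of 21.3, 12.8 and 5.62 in lung, kidney and liver and log2 fold changes of 0.12 ± 0.05 and 0.22 ± 0.04 for lung over kidney and liver. Ift172 was at medians of 44.1, 22.7 and 8.61 TPM, and Ift52 at 39.5, 43.9 and 19.3 TPM. Bbs10, which helps to assemble the BBSome rather than being part of it, was the transport gene called lower in lung, by -1.27 ± 0.07 against kidney and -2.03 ± 0.08 against liver (adjusted p = 1.5e-45, lower in 47 of 47 strains). Its TPM medians were 5.25 in lung, 7.98 in kidney and 7.09 in liver, and on log2(TPM + 1) the differences were -0.63 and -0.44 and were not called.

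Genes of the same pathways outside the 49 were counted from lists of other subunits and regulators, with the same shares of all genes as background: 25.5% higher and 20.6% lower for lung against kidney, 31.0% and 23.9% for lung against liver, and 20.8% and 15.6% for kidney against liver. Of 9 tested genes of the axonemal ruler, nexin link and central pair (among them Ccdc39, Ccdc40 and Hydin), 8 were higher in lung than in kidney and 9 higher than in liver. Of 9 tested factors that assemble or dock dynein arms, 5 were higher and 1 lower than in kidney and 8 higher than in liver. The lower one was Zmynd10, at -1.60 ± 0.16. Foxj1 was higher in lung by 6.22 ± 0.25 and 7.03 ± 0.22. Of 9 tested IFT and BBS subunits named otherwise, 0 were higher and 1 (Arl6) lower than in kidney, 2 were higher than in liver, and 4 were higher in kidney than in liver. Of 5 tested IFT motor genes, 0, 2 and 3 were higher in these comparisons. Of 16 tested genes of the transition zone and ciliary membrane, 2 were higher and 2 lower in lung than in kidney, 10 were higher and 1 lower in lung than in liver, and 10 were higher in kidney than in liver. For lung against kidney these last 3 lists had a smaller share higher than all genes did.

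Ciliated cell markers moved with the motile genes. The summed TPM of the 8 markers (Foxj1, Tppp3, Sec14l3, Ccdc39, Ccdc113, Dynlrb2, Hydin and Spag17) ranged from 368 to 3336 in lung (median 2132), from 8.69 to 63.1 in kidney (median 22.4) and from 1.33 to 21.6 in liver (median 2.94). Foxj1, Ccdc39, Hydin and Spag17 were also among the pathway genes counted above. Sec14l3 and Tppp3 had the highest lung medians of the 8, 1366 and 583 TPM, and Sec14l3 had a median of 13.6 TPM in kidney. Ccdc113 was at a median of 0 in kidney, and Ccdc113, Dynlrb2 and Hydin were at 0 in liver. Traces of lung transcripts were present outside lung, with Scgb1a1 at 0.062% and 0.067% of its lung median in kidney and liver and Sftpc at 0.080% and 0.093%. Medians of Dnah6 in kidney and liver were 0.44% and 0.16% of its lung median, and those of Dnah9 0.50% and 0.18%. In kidney these were the lowest shares above 0 among the tested motile members. Shares in kidney were 2.1% for Dnah11, 3.6% for Dnah5, 6.8% for Dnah7c and 27.0% for Dnah17, and 0 for Dnah7a and Tekt4. In liver they were 0.061% for Dnah10, 0.42% for Dnah5 and 4.0% for Dnah8. The part of such carryover in the low values was not tested.

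**Figure D3:**
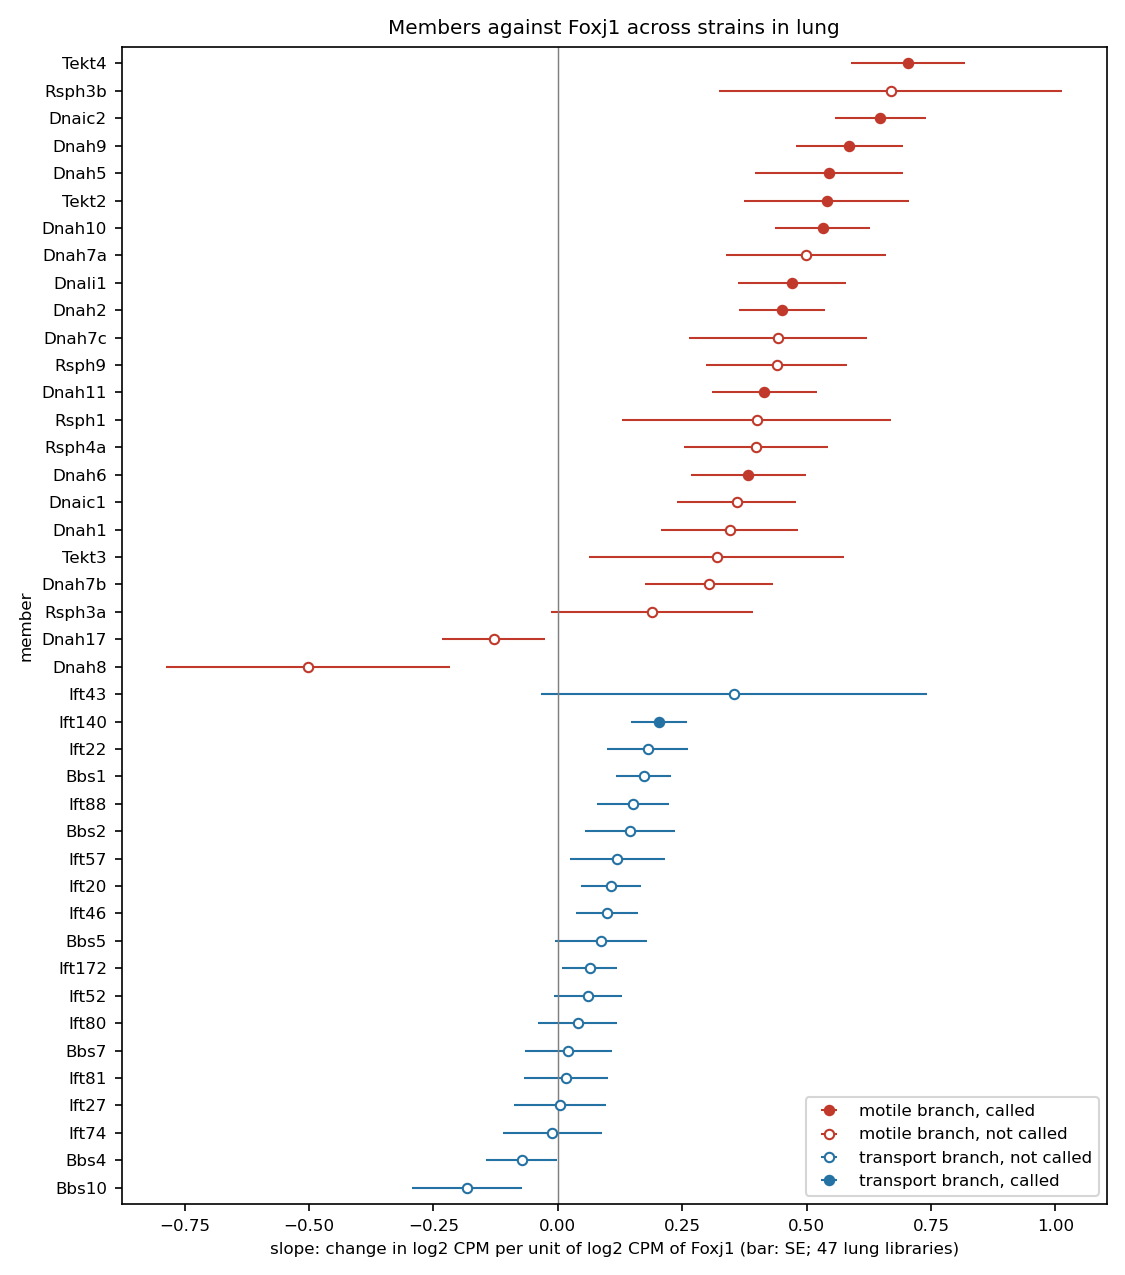
Slope of each member's log2 CPM on the log2 CPM of Foxj1 over the 47 lung libraries, with bars for the SE, filled where the slope was called. Called motile slopes lie between 0.38 and 0.70, the single called transport slope is Ift140 at 0.20, and Dnah8 and Dnah17 lie below 0.

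Within lung, the level of Foxj1 across strains rose with that of 10 motile members. Foxj1 ranged from 13.9 to 105 TPM over the 47 lung libraries (median 51.5), and it was too low in kidney and liver (medians 0.44 and 0.10) for the same fit. A positive slope on Foxj1 was called at an adjusted p of at most 0.1 for 10 of 23 motile members tested, against 2.07% of 12872 genes, and for 1 of 19 transport members. A negative slope was called for 0 members of either branch, against 0.357% of genes (limma-voom, 0 members at an unadjusted p under 0.05). The median slope was 0.44 for motile members, 0.09 for transport members and 0.01 for all genes. Each point is a library that gave both values, and the share of airway in each piece of lung was not measured.

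Dnaic2 had the strongest relation, with a slope of 0.65 ± 0.09 (adjusted p = 2.0e-05), a Pearson r of 0.71 (permutation p = 1e-05, the smallest 100000 permutations can give), a Spearman rho of 0.74 (permutation p = 1e-05) and r = 0.69 without CC032 and CC033, the 2 strains farthest from the median of Foxj1. Tekt4 had a slope of 0.70 ± 0.11 (r = 0.66, rho = 0.64, both with a permutation p = 1e-05), Dnah9 of 0.59 ± 0.11 (r = 0.62, rho = 0.62, permutation p = 1e-05), Dnah10 of 0.53 ± 0.10 (r = 0.62, rho = 0.62, permutation p = 1e-05) and Dnah2 of 0.45 ± 0.09 (r = 0.61, rho = 0.60, permutation p = 2e-05). Without the 2 strains these r were between 0.61 and 0.63. Dnah5, Dnah6, Dnah11, Dnali1 and Tekt2 were also called. Tekt2 lost its call without the filter (adjusted p = 0.18), with library size as a covariate (adjusted p = 0.12) and by edgeR (adjusted p = 0.11), and Dnah6 lost its call without the filter (adjusted p = 0.13) and with Scgb1a1 as a covariate (adjusted p = 0.15). Ift140 was the transport member called, at 0.20 ± 0.06 (adjusted p = 0.0499), not called without the filter (adjusted p = 0.13), and Bbs1 followed at 0.17 ± 0.06 (adjusted p = 0.11). Dnah8 had a negative slope of -0.50 ± 0.28 (adjusted p = 0.41) that was not called. The fit does not set the branches against each other. Counting error in Foxj1 itself pulls slopes towards 0, while the scaling of the shared libraries can raise them. With total counts in place of TMM, a positive slope was called for 98.7% of all genes, and that of Dnah8 was 1.09. Of the marker lists, that of ciliated cells had a median slope of 0.43 with 3 of 7 tested genes called. The club cell list had a median slope of 0.36 with 0 of 3 genes called, and the kidney proximal tubule list 0.44 with 0 of 3 called. The 1 collecting duct gene tested had 0.62, not called. The bile duct, alveolar type 1, alveolar type 2 and podocyte lists had medians of 0.08, 0.05, 0.04 and 0.006. The hepatocyte and B cell lists had -0.21 and -0.25, and 0 genes were called in any of these lists. The part of such other cell types in the result was not tested. With Scgb1a1 as a covariate 9 motile members and 1 transport member were called, against 4.69% of genes. Without CC015, CC020 and CC033 the counts were 12 and 1.

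The motile genes also moved with each other. The median Pearson r of log2 CPM over the 47 lung libraries was 0.38 for the 253 motile pairs, 0.17 for the 171 transport pairs, 0.22 for the 437 pairs across branches and 0 for all pairs of tested genes. Dnah9, Dnah10 and Dnah6 had the highest median r with the other motile members, 0.70, 0.70 and 0.69. Rsph3b, Dnah8, Rsph3a and Dnah17 were the 4 with a median below 0.1 (0.07, -0.06, -0.12 and -0.14). Of the transport genes, Ift140 and Ift88 went furthest with the motile branch, with median r of 0.56 and 0.61, while Ift43 and Ift27 were at 0.05 and -0.14. Strain CC038 had the highest lung TPM of 8 of the 23 motile members tested in lung, and its Foxj1 was 102 TPM.

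**Figure D4:**
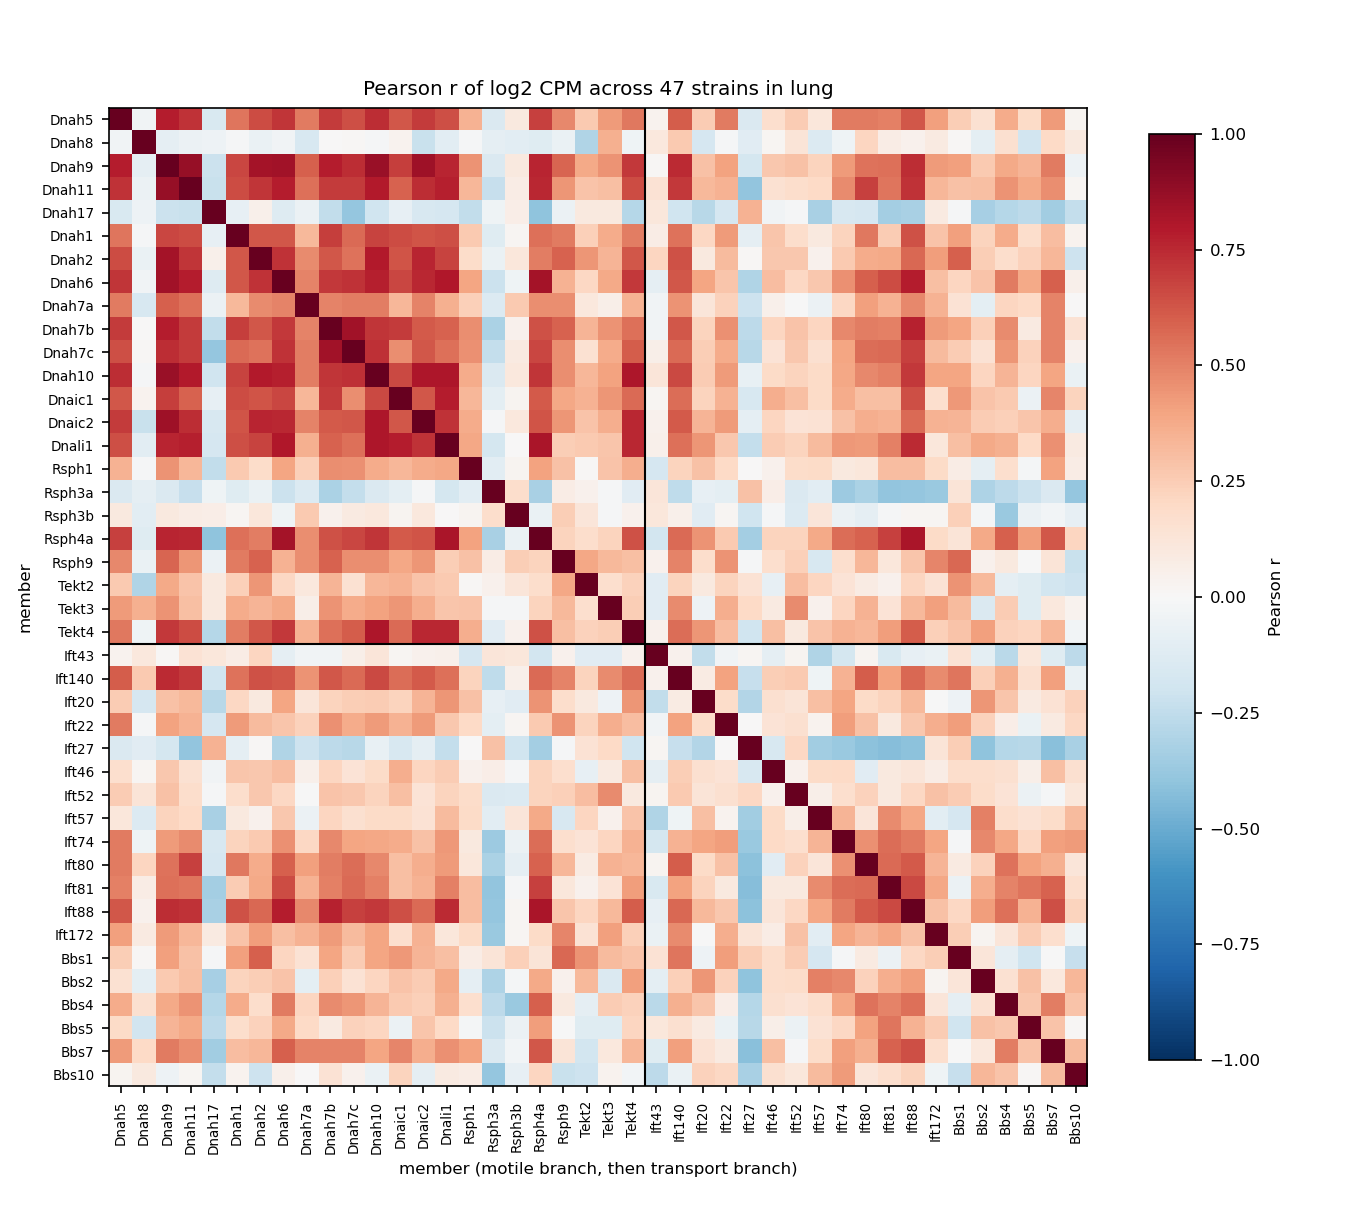
Pearson r of log2 CPM between the 42 members tested in lung over 47 strains, motile genes first and a line between the branches, on a colour scale from -1 to 1. Most motile genes form a block of positive r, the rows of Dnah8, Dnah17, Rsph3a and Rsph3b are pale or blue, and Ift140 and Ift88 continue the block into the transport genes.

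Whether a strain that is high in a tissue is also high in another was examined on TPM rescaled by TMM within each tissue. Members could be tested if they were above 1 on this scale in more than 50% of the libraries of both tissues. In the motile branch these were 6 genes for lung and kidney and 2 for each pair with liver, and in the transport branch 19, 16 and 16. A positive correlation of strain levels was called at an adjusted p of at most 0.1 for 3 of 6 motile and 4 of 19 transport members between lung and kidney, against 16.9% of genes. Between lung and liver it was called for 1 of 2 and 3 of 16, against 13.1%. Between kidney and liver it was called for 1 of 2 and 8 of 16, against 23.2%. The transport counts for both pairs with lung were near the share of all genes. The motile genes called were Rsph1, Rsph3a and Rsph3b for lung and kidney, and Rsph3b for each pair with liver. The 2 motile genes tested for lung and liver were the copies Rsph3a and Rsph3b, so most of the motile branch was not tested. Without CC015, CC020 and CC033 the transport counts were 4, 2 and 8. With TPM not rescaled by TMM the transport counts were 0, 0 and 3, while the motile counts stayed at 3, 1 and 1, and the shares of all genes called fell to 3.99%, 1.44% and 15.1%.

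Rsph3b, Ift46 and Bbs2 were the 3 members called in all 3 pairs of tissues, and Rsph3b had the highest r of the 3 for both pairs with lung. It ranged from 0.62 to 24.4 TPM in lung, from 0.52 to 23.9 in kidney and from 0 to 6.05 in liver. CC021 had 24.4, 20.3 and 5.25 TPM in lung, kidney and liver, and CC004 had 1.88, 0.52 and 1.08. The correlation of rank-transformed levels was 0.66 between lung and kidney (rho = 0.63, both with a permutation p = 1e-05, adjusted p = 0.00053), 0.60 between lung and liver (permutation p = 2e-05, adjusted p = 0.0012) and 0.60 between kidney and liver (permutation p = 1e-05, adjusted p = 0.00043). Without the 2 farthest strains r was 0.66, 0.58 and 0.60. Rsph3a had r = 0.50 between lung and kidney (adjusted p = 0.0071), and the r of Rsph3a with Rsph3b within a tissue was 0.35 in lung, 0.28 in kidney and -0.08 in liver on log2(TPM + 0.5). In lung it was 0.18 on log2 CPM after TMM. The strains differ in sequence, and with so many repeated windows in both genes the part of read assignment in these levels was not tested.

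Rsph1 had r = 0.50 between lung and kidney (rho = 0.48, adjusted p = 0.0082). Its highest lung values were in CC025 (188 TPM), CC029 (187 TPM) and CC062 (168 TPM), and the same strains ranked 3, 7 and 1 in kidney with 4.78, 2.66 and 5.53 TPM. The kidney values rest on few counts, with a median of 4 and more than 3 counts in 27 of 47 libraries. Among transport genes, Ift46, an IFT-B subunit, had r of 0.55, 0.47 and 0.61 for lung with kidney, lung with liver and kidney with liver, and Bbs2 had 0.55, 0.47 and 0.48, all called. The lung and liver call of Bbs2 was lost without the 2 farthest strains (r = 0.35, adjusted p = 0.14 by the permutation test), and its 3 calls were lost on TPM without TMM. Ift27 and Ift52 were called for both pairs with kidney, Ift20 for lung and liver, and Ift81, Ift172, Bbs5 and Bbs10 for kidney and liver. Without CC015, CC020 and CC033 the calls of Ift20 (adjusted p = 0.15) and Bbs5 (adjusted p = 0.12) were lost, and that of Bbs10 was lost by Spearman rho (adjusted p = 0.18) and without the 2 farthest strains (adjusted p = 0.27). On TPM without TMM, Ift27 kept its kidney and liver call, as did Ift46 and Ift172, and the calls of the other transport members were lost.

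**Figure D5:**
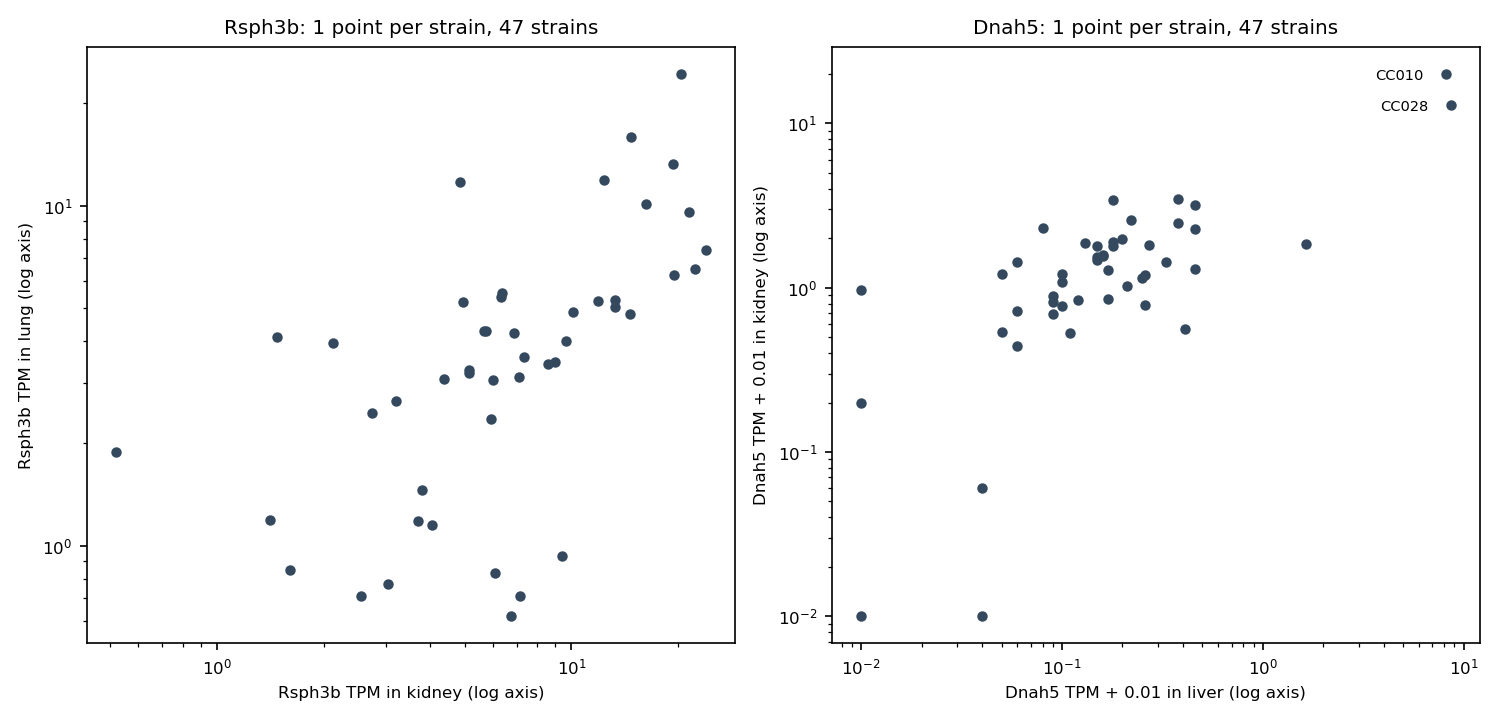
TPM per strain on log axes, Rsph3b in kidney (x axis) and lung (y axis) on the left, and Dnah5 + 0.01 in liver (x axis) and kidney (y axis) on the right, 1 point for each of 47 strains. Rsph3b rises from the lower left to CC021 at 20.3 and 24.4 TPM, and CC010 and CC028 stand apart from the other strains for Dnah5.

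Dnah5 stood apart in 2 strains. In kidney CC010 had 19.9 TPM (803 counts) and CC028 13.0 TPM (842 counts), followed by CC005 at 3.46 TPM, with a median of 1.27. In liver CC028 had 8.61 TPM (888 counts) and CC010 8.19 TPM (2649 counts), followed by CC024 at 1.64 TPM, with a median of 0.15. Foxj1 was 0.46 and 0 TPM in the kidneys and 0.06 and 0.06 TPM in the livers of CC010 and CC028, and Dnah9 was at most 0.06 TPM in the 4 libraries. Scgb1a1 was 29.5 and 79.1 TPM in these kidneys and 2.53 and 19.8 TPM in these livers. In lung the pair lay within the other strains, with 40.6 TPM in CC010 and 45.7 TPM in CC028, ranks 16 and 11 of 47. These strains were picked out after their values were seen, each rests on 1 mouse, and Dnah5 was too low in liver for the test of shared levels.

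Spread across strains within a tissue was uneven among members. The SD of log2 CPM had a median of 0.40 over 42 members in lung, against 0.35 for all genes, 0.33 over 25 members in kidney, against 0.35, and 0.44 over 18 members in liver, against 0.38. Dnah8 had the largest SD in lung, 1.0, from 0.65 TPM in CC015 and 1.74 in CC032 to 34.2 in CC025 and 55.7 in CC021. Its level in CC021 was 0.61 TPM in kidney and 0.73 TPM in liver, ranks 12 and 11. Rsph1 and Rsph3b followed in lung with SDs of 0.90 and 0.80. Of the 18 members in liver Rsph3b had the largest SD, 1.11, and Ift22 and Bbs2 had 0.55 each. Bbs2 in liver ranged from 0.56 TPM in CC062 to 5.13 TPM in CC021.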

How the data were processed

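For 47 CC strains, whole lung, kidney and liver of 1 mouse per strain gave 141 libraries of 50-base single-end reads from total RNA after ribosomal depletion. The authors aligned reads with STAR 2.5.3a to a pseudo-genome of each strain built on mm9 and estimated gene abundance with RSEM. The deposited expected counts are estimates per gene, not normalized, and were rounded to whole numbers here (25 values were not whole). The deposited TPM values, scaled by the authors for length and library, were used for levels. The deposited FPKM values were not used. Total counts ranged from 1738046 to 42158454 per library.

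Tissues were compared by limma-voom (limma 3.58.1, edgeR 4.0.16, R 4.3.3) with TMM scaling, strain as a block, more than 1 CPM in at least 30% of libraries, an adjusted p of at most 0.1 and a log2 fold change of at least 1. The block rests on the design, since the same mouse gave all 3 tissues. Within lung, the same method fitted a slope on the log2 CPM of Foxj1. Strain levels were correlated between tissues on rank-transformed TPM, rescaled by TMM within each tissue, with 100000 permutations, two-sided. Genes above 1 on the rescaled TPM in more than 50% of libraries of both tissues were tested. Benjamini-Hochberg adjustment ran over all genes tested. The methods were also run on simulated counts with the same level of noise for all genes, which did not copy the make-up of single libraries. The study's models for differential expression, QTL and mediation had sequencing batch as a term. Which library belongs to which batch was not given in the sources used here, so no fit has batch as a term. In the tissue comparison, intervals and p-values measure the spread of tissue differences across mice, after the level of each mouse is removed. In the other tests they measure the spread between mice. With 1 library per tissue and mouse, noise of single libraries is part of both.

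The members and gene lists were chosen with earlier results of these data known, and Rsph14 was placed with the radial spokes after the files were seen. Genes were named by level, by size of the called difference in each direction, by the Foxj1 relation, by shared strain levels, by spread, or by having no library above 3 counts. Alternatives were edgeR, DESeq2 1.42.0, other scalings, filters, thresholds and sets of strains. The fits without CC015, CC020 and CC033 were chosen after seeing the data.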

Additional observations from a re-analysis of the deposited data

How the results depend on the processing

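Counts of called members moved with some settings. Without a fold threshold, lung against kidney gave 3 motile members lower and 5 transport members higher and 11 lower. Of 12127 genes, 5646 were called higher and 5282 lower. Lung against liver gave 2 motile lower and 13 transport higher and 5 lower, with 5822 genes higher and 5470 lower. Kidney against liver gave 12 motile higher and 4 lower and 4 transport lower, with 5237 genes higher and 5229 lower. A transport member was called higher in lung than in kidney, in place of 0, with DESeq2 size factors, edgeR, DESeq2, log2(TPM + 1) and log2(TPM + 0.1), a count of 1 each. Of 12127 genes, from 3095 (edgeR) to 4313 (log2(TPM + 0.1)) were called higher under these settings. For kidney against liver, edgeR gave 8 motile members higher and DESeq2 9, DESeq2 and its size factors 1 lower. Over all 12127 genes, edgeR called 2642 higher and DESeq2 2841, and DESeq2 and its size factors called 1743 and 1740 lower. Without the filter on low counts, 2 transport members were lower in lung than in kidney, 2 motile members lower in lung than in liver and 1 motile member lower in kidney than in liver. Of the 22652 genes then tested, 3440, 6986 and 2479 were called lower in these comparisons. On log2(TPM + 1) and log2(TPM + 0.1), 0 motile and 0 transport members were lower in lung than in kidney, 15 transport members were higher and 0 lower in lung than in liver, and 0 motile members were lower in kidney than in liver, with 11 higher on log2(TPM + 0.1). Of 12127 genes, log2(TPM + 1) called 1554 lower in lung than in kidney and 820 lower in kidney than in liver. It called 6969 higher and 1004 lower in lung than in liver. On log2(TPM + 0.1) these were 1714, 959, 7799 and 1104, with 5696 higher in kidney than in liver. On these scales all genes shift: the share of calls that were higher was 70.5%, 87.4% and 83.7% on log2(TPM + 1), against 55.2%, 56.5% and 57.1% after TMM, for lung over kidney, lung over liver and kidney over liver. Ift20 turned to 0.60 and 0.61 for lung over liver and 0.0945 and 0.0969 for kidney over liver on log2(TPM + 1) and log2(TPM + 0.1), Rsph3a to 0.84 and 1.19 and Rsph3b to 0.69 and 1.08 for lung over liver. For Foxj1, scaling by total counts called 23 motile and 19 transport members but also 98.7% of all genes, and turned the slope of Dnah8 to 1.09. Transport members with a Foxj1 relation were 0 without the filter and 2 by edgeR, against 0.754% and 2.32% of all genes. Motile members with shared strain levels on log2(CPM + 1) were 5 for lung and kidney, against 19.8% of all genes. For lung and liver they were 2, against 16.3%. Transport members were 0, 0 and 3 on TPM without TMM, against 3.99%, 1.44% and 15.1%. The cause of these moves was not tested. Of the values of single members under all alternatives, 828 kept their direction and side of the threshold, 40 fell short of it, 15 passed it and 9 changed direction. Depth limits the members with 3 counts or fewer in every library of a tissue.

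Without the strain block, which pairs the tissues of each mouse, 18 motile members were higher and 1 lower in lung than in kidney, 20 higher in lung than in liver, and 6 higher and 2 lower in kidney than in liver, while 1 transport member was higher in lung than in kidney. Of 12127 genes, 3115 were then higher and 2503 lower in lung than in kidney. Lung over liver had 3823 higher, and kidney over liver had 2578 higher and 1873 lower.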
